A study of Mus musculus with 4 samples.

Results

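Interferon-stimulated genes were followed in mouse bone marrow-derived macrophages cultured with or without IL-4, in the presence and absence of the transcription factor Stat6. The genes were a list of 39 symbols of known induction by interferon, looked up in the platform annotation of the array. The list was chosen with earlier results of these data known, so it was not blind to the values below. Of the 39 symbols, 34 had a probeset that the annotation gave to them alone, out of 19938 genes measured in this way. Isg15, Ifi47, Gbp2 and Igtp were read only by probesets shared with another gene and Ifi44 by none in the annotation used here, so these 5 genes have no values. The 34 measured genes comprised 17 antiviral effectors, 8 sensors and regulators, 4 Parp genes, 2 Ifi genes and 3 GTPase genes.

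The 4 groups had 1 array each: 4get/Stat6-/- macrophages with IL-4, 4get/Stat6-/- macrophages in medium, BALB/c wild-type macrophages with IL-4, and BALB/c wild-type macrophages in medium. All cells were grown from bone marrow for 7 days with 10% supernatant of L929 cells, a fibroblast line that secretes the macrophage growth factor M-CSF, and were then replated for 24 h of culture and sorted for the macrophage surface protein encoded by Adgre1. The amount of IL-4 is stated as 10 µg/mL for the samples and as 10 mg/mL for the series, and which unit was meant is not settled. The 4get allele, a reporter of IL-4 transcription, is named for the Stat6-/- cells and not for the wild-type cells, so its part cannot be told apart from that of Stat6. The number, age and sex of the mice and any pooling are not given. All values are RMA signals or their differences in log2 units. With 1 array per group no difference had a replicate check and no test between groups could be made. A gene was called higher or lower by size alone, at 1 log2 unit or more (2-fold) between arrays and with the brighter array at or above a floor of 2.52, the median signal of all single-gene probesets. The same share among all eligible genes is given as the background of each comparison.

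Type I interferons signal through the receptor chains Ifnar1 and Ifnar2, which activate the kinases Jak1 and Tyk2. These phosphorylate STAT proteins, among them Stat2, which join Irf9 in the complex ISGF3 and bind the interferon-stimulated response element, ISRE, in front of target genes. Macrophages keep a low level of this signalling without infection, and its target genes block viral entry, translation, replication and release. IL-4 acts through a different receptor, whose main transcription factor is Stat6.

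Stat6 itself had a signal of 4.25 with IL-4 and 4.54 in medium in Stat6-/- macrophages, against 6.68 with IL-4 and 7.34 in medium in wild type. In Stat6-/- cells it was thus lower by 5.40-fold with IL-4 and by 6.98-fold in medium, in the direction of the labels. Whether the probeset lies in the deleted part of Stat6 is not known here. All 8 macrophage markers were above the floor on at least 1 array. The lists of T cells, neutrophils, eosinophils, dendritic cells and plasmacytoid dendritic cells had 1 marker each above the floor, and that of fibroblasts had 3 of 4. Those of B cells, NK cells, basophils and mast cells, and erythroid cells had 0. Siglech and Ccr9, which mark plasmacytoid dendritic cells, the most productive source of type I interferon, were under the floor on all 4 arrays. Cox6a2, the other marker of that list on the array, was above the floor on all 4. It had 3.64 with IL-4 and 3.47 in medium in Stat6-/- cells, against 3.58 with IL-4 and 3.31 in medium in wild type.

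In Stat6-/- macrophages 0 of the 34 genes fell and 0 rose with IL-4, whereas in wild type 21 fell and 0 rose. In Stat6-/- the background was 0.115% of eligible genes lower and 0.24% higher, and the median log2 difference, IL-4 minus medium, was -0.07 over the 34 genes and -0.04 over all genes above the floor. The differences in Stat6-/- ran from -0.31 for Eif2ak2 to 0.93 for Ifi27l2a, and 33 of the 34 stayed within 0.5. Small differences there were not particular to these genes. The quartiles in Stat6-/- were -0.23 and 0.15 over all genes above the floor. Even at 1.5-fold only 2.78% of eligible genes were lower and 2.94% higher in Stat6-/-. In wild type the background was 6.78% lower and 2.96% higher. Of all genes past the rule in wild type 30.4% were thus higher, a share that was 45.2% after the arrays were quantile-normalized again and 46.9% after the intensity trend was removed. The median in wild type was -1.18 over the 34 genes and -0.10 over all genes. Of the 34, 32 lay below zero, against 6221 of the 10798 genes above the floor. The differences in wild type ran from -3.84 for Ifit3 to 0.41 for Ifi27l2a. The RNA was that of all sorted cells of a culture together, so fewer cells that express these genes and less of their RNA per cell cannot be told apart.

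**Figure D1:**
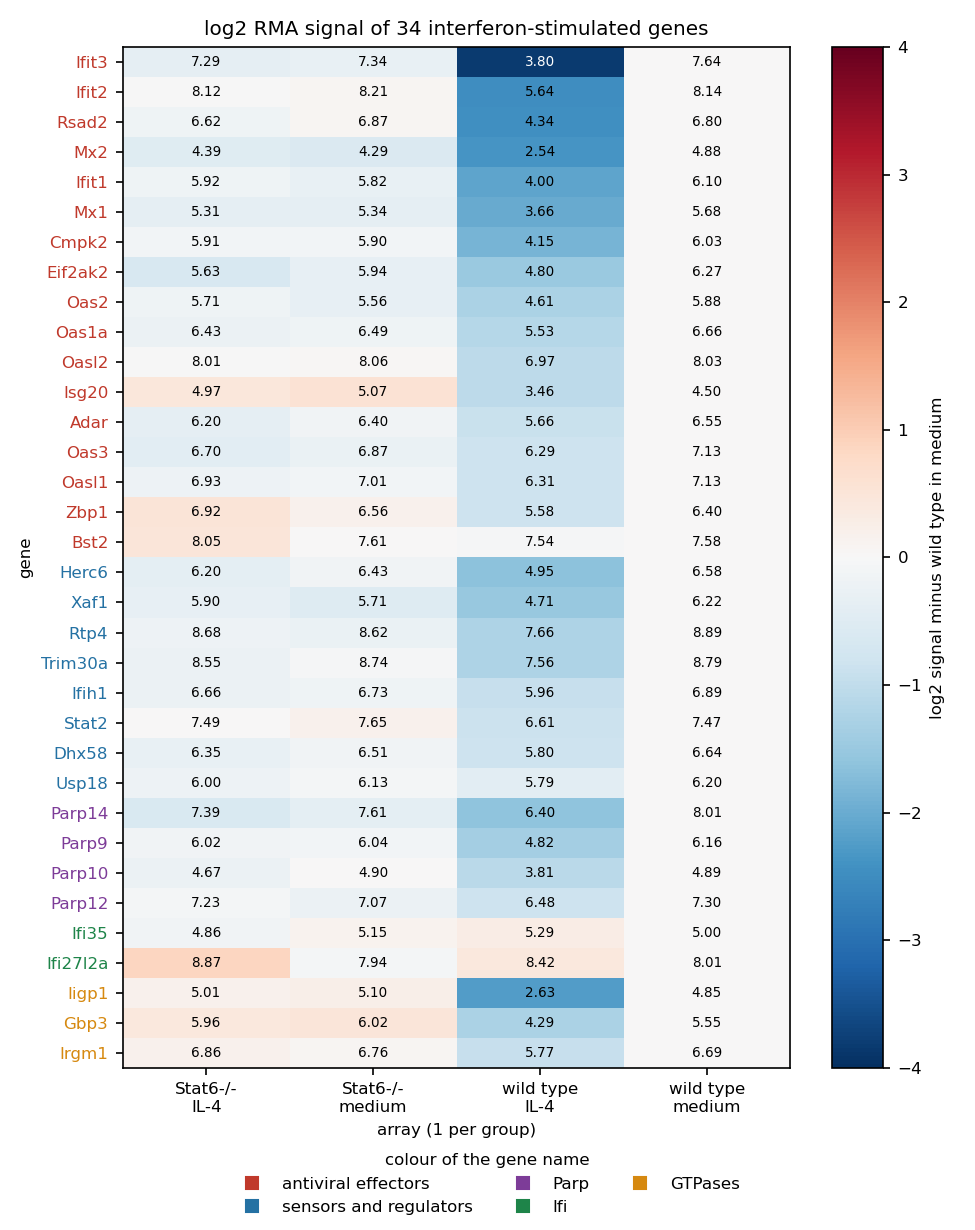
Heat map of the log2 RMA signal of the 34 measured genes (rows, ordered by group and by the IL-4 difference in wild type) on the 4 arrays (columns, 1 per group), with the signal printed in each cell and the colour giving the difference from wild type in medium. The column of wild type with IL-4 is darkest, with Ifit3 at 3.80, while Ifi35 and Ifi27l2a are not lower there than in wild type in medium.

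The low array was the same for nearly all members. Wild type with IL-4 had the lowest of the 4 signals for 32 of the 34 genes (94.1%), against a background of 35.4% of all genes above the floor. For 30 of the 34 genes (88.2%) that array lay below the other 3 by more than the whole range of those 3, against a background of 15.5%. The median absolute difference over the 34 genes was 0.15 between the Stat6-/- arrays with IL-4 and in medium, and 0.16 between Stat6-/- and wild type in medium. Over all genes above the floor these pairs differed by 0.19 (IL-4 and medium in Stat6-/-) and 0.23 (the genotypes in medium). The members' difference was 1.18 between IL-4 and medium in wild type, where that of all genes was 0.34, and 1.03 between the genotypes with IL-4, where that of all genes was 0.29. All 34 genes were above the floor on all 4 arrays. Of the 8 macrophage markers, 0 passed the rule with IL-4 in Stat6-/- cells, against backgrounds of 0.115% lower and 0.24% higher. In wild type 4 fell, against a background of 6.78%. These were Cd14 by 2.74, Fcgr1 by 1.76, Mertk by 1.36 and Adgre1 by 1.21. The mean log2 signal of the macrophage list was 9.56 with IL-4 and 9.63 in medium in Stat6-/- cells, against 8.74 with IL-4 and 9.80 in medium in wild type, and the part of this shift in the results was not tested. Fcgr1 is itself interferon-inducible.

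Among the antiviral effectors, 12 of 17 fell with IL-4 in wild type, with a median of -1.27, and the IFIT genes held the largest decrease. The Ifit1 protein binds viral RNA that lacks the host cap modification and blocks its translation. Ifit3 had signals of 7.29 with IL-4 and 7.34 in medium in Stat6-/- macrophages, against 3.80 with IL-4 and 7.64 in medium in wild type. Ifit2 had 8.12 with IL-4 and 8.21 in medium in Stat6-/- cells, against 5.64 with IL-4 and 8.14 in medium in wild type. Ifit1 had 5.92 with IL-4 and 5.82 in medium in Stat6-/- cells, against 4.00 with IL-4 and 6.10 in medium in wild type. For each of the 3 genes only wild type with IL-4 was low, and the other 3 arrays spanned 0.35 for Ifit3, 0.09 for Ifit2 and 0.29 for Ifit1. The IL-4 culture of wild type was 14.3-fold below the medium culture for Ifit3, 5.63-fold for Ifit2 and 4.29-fold for Ifit1. Ifit2 and Ifit3 are adjacent genes, and 3 protein-coding genes (Ifit1bl1, Ifit3b and Ifit1bl2) lie between Ifit3 and Ifit1. Ifit3 and Ifit3b are near-identical copies, so the signal of either may include the other. Ifit3b, read by its own probeset, had 3.53 with IL-4 and 3.55 in medium in Stat6-/- cells, against 1.44 with IL-4, under the floor, and 4.00 in medium in wild type, a decrease of at least 2.79-fold in wild type.

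Promoters are shown for 5 genes, of which 4 fell with IL-4 in wild type and 1 did not. Ifit3 and Ifit1 fell together on chromosome 19, Rsad2 and Cmpk2 are neighbours on chromosome 12 of which only Rsad2 holds an ISRE core, and Bst2 holds ISRE cores but did not fall. Each sequence is the 250 bases before the annotated start, 5′ to 3′ on the gene's strand, from RefSeq (GRCm38.p6), with ISRE cores in capitals. The ISRE core was searched as GAAANNGAAA on both strands, so that a core on the opposite strand reads as its reverse complement. The intervals are chr19:34583279-34583528 (+) for Ifit3, chr19:34640639-34640888 (+) for Ifit1, chr12:26456453-26456702 (-) for Rsad2, chr12:26468965-26469214 (+) for Cmpk2 and chr8:71537473-71537722 (-) for Bst2.
Ifit3: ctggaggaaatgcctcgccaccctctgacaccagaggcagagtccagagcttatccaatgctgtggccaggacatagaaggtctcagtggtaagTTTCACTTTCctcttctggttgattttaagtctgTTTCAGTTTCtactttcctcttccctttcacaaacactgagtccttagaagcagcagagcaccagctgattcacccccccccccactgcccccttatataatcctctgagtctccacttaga
Ifit1: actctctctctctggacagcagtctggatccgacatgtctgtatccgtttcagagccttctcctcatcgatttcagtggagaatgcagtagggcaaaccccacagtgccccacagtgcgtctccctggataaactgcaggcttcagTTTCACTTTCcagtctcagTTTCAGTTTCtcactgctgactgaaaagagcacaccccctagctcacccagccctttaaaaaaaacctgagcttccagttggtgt
Rsad2: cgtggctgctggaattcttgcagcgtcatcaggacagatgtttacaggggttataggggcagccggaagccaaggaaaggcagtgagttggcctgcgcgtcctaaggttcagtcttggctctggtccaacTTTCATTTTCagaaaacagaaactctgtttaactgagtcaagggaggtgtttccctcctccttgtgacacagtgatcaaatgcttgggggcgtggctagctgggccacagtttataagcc
Cmpk2: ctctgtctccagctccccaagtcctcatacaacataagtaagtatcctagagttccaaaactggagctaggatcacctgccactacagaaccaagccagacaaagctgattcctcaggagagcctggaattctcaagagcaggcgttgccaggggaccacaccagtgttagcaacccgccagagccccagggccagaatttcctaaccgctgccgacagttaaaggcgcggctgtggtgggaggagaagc
Bst2: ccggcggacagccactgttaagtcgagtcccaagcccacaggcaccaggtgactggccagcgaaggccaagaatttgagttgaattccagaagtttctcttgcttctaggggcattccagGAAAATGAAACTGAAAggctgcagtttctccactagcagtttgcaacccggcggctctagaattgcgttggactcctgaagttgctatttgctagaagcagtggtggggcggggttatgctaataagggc
In the Ifit3 sequence the 2 cores lie at -156 to -147 and -122 to -113, counted from the annotated start. In that of Ifit1 the 2 cores lie closer to the start, at -104 to -95 and -85 to -76. Rsad2 has 1 core at -120 to -111. These 5 cores are on the strand opposite to the gene. The 2 cores of Bst2, at -130 to -121 and -124 to -115, overlap by their shared GAAA and are on the gene's own strand. Cmpk2 has 0 cores in the window, as do both RefSeq windows of Ifit2.

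Rsad2 encodes viperin, an enzyme that makes a chain-terminating nucleotide, and Cmpk2 a nucleotide kinase that supplies its substrate. No protein-coding gene lies between them. Rsad2 had signals of 6.62 with IL-4 and 6.87 in medium in Stat6-/- macrophages, against 4.34 with IL-4 and 6.80 in medium in wild type. Cmpk2 had 5.91 with IL-4 and 5.90 in medium in Stat6-/- cells, against 4.15 with IL-4 and 6.03 in medium in wild type. The decrease with IL-4 in wild type was 5.50-fold for Rsad2 and 3.66-fold for Cmpk2. The other 3 arrays spanned 0.25 for Rsad2 and 0.12 for Cmpk2.

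The dynamin-like Mx GTPases trap viral nucleoproteins. BALB/c and many other laboratory strains are known to carry a deletion in Mx1 that removes the functional protein, so the Mx1 signal reads its transcript only. The Mx2 signal also reads transcript, and whether these cells hold functional Mx2 protein is not shown here. Mx1 had signals of 5.31 with IL-4 and 5.34 in medium in Stat6-/- macrophages, against 3.66 with IL-4 and 5.68 in medium in wild type, where it was 4.07-fold lower with IL-4. Mx2 had 4.39 with IL-4 and 4.29 in medium in Stat6-/- cells, against 2.54 with IL-4 and 4.88 in medium in wild type, where it was 5.08-fold lower. The low signal of Mx2 was next to the floor of 2.52, where RMA compresses differences.

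The oligoadenylate synthetases sense double-stranded RNA and activate the ribonuclease RNase L, and Oasl1 is a relative that lacks the enzyme activity. Oas2 had signals of 5.71 with IL-4 and 5.56 in medium in Stat6-/- macrophages, against 4.61 with IL-4 and 5.88 in medium in wild type, 2.42-fold lower with IL-4. Oas1a had 6.43 with IL-4 and 6.49 in medium in Stat6-/- cells, against 5.525 with IL-4 and 6.66 in medium in wild type, a log2 difference of -1.14. Oasl2 had 8.01 with IL-4 and 8.06 in medium in Stat6-/- cells, against 6.97 with IL-4 and 8.03 in medium in wild type, 2.09-fold lower. Oas3 and Oasl1, the direct neighbours of Oas2 and Oasl2 in the genome, did not pass the rule, with differences of -0.84 and -0.82 in wild type. A further probeset reads Oas1a together with its paralog Oas1g, so the signal of Oas1a may not be its own. All 5 genes were lowest in wild type with IL-4, but Oasl2 missed the rule after the arrays were quantile-normalized again or the intensity trend was removed, and Oas1a under the second of these settings (-0.93).

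The remaining effectors act on RNA, translation or membranes. Eif2ak2 encodes PKR, the kinase that halts translation on double-stranded RNA. It had signals of 5.63 with IL-4 and 5.94 in medium in Stat6-/- macrophages, against 4.80 with IL-4 and 6.27 in medium in wild type, 2.77-fold lower with IL-4. Isg20, an exonuclease that degrades RNA, had 4.97 with IL-4 and 5.07 in medium in Stat6-/- cells, against 3.46 with IL-4 and 4.50 in medium in wild type, 2.06-fold lower. After the arrays were quantile-normalized again its difference was -0.87, short of the rule. Zbp1, a sensor of Z-form nucleic acid that triggers cell death, had 6.92 with IL-4 and 6.56 in medium in Stat6-/- cells, against 5.58 with IL-4 and 6.40 in medium in wild type. Zbp1 did not pass the rule for IL-4 in either genotype (0.36 in Stat6-/-, -0.82 in wild type) but was 2.53-fold higher in Stat6-/- than in wild type with IL-4. Adar, the double-stranded RNA editing enzyme, had a difference of -0.89 in wild type and did not pass. Bst2, or tetherin, holds budding virus at the cell surface. It had 8.05 with IL-4 and 7.61 in medium in Stat6-/- cells, against 7.54 with IL-4 and 7.58 in medium in wild type, and was the effector with the smallest difference in wild type, -0.04. That difference lay above zero after the arrays were quantile-normalized again or the intensity trend was removed.

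Of the 8 sensors and regulators, 4 fell with IL-4 in wild type, with a median of -1.07. Herc6, which in mouse attaches the ubiquitin-like protein Isg15 to its targets, had signals of 6.20 with IL-4 and 6.43 in medium in Stat6-/- macrophages, against 4.95 with IL-4 and 6.58 in medium in wild type, 3.10-fold lower with IL-4. Xaf1, a pro-apoptotic partner of the XIAP protein, had 5.90 with IL-4 and 5.71 in medium in Stat6-/- cells, against 4.71 with IL-4 and 6.22 in medium in wild type, 2.85-fold lower. The other members that fell were Rtp4 and Trim30a. Rtp4, which in mouse restrains interferon responses, had 8.68 with IL-4 and 8.62 in medium in Stat6-/- cells, against 7.66 with IL-4 and 8.89 in medium in wild type, 2.35-fold lower. Trim30a, a TRIM protein that limits NF-kB signalling, had 8.55 with IL-4 and 8.74 in medium in Stat6-/- cells, against 7.56 with IL-4 and 8.79 in medium in wild type, 2.34-fold lower. The RNA sensors Ifih1 (MDA5) and Dhx58 (LGP2), the factor Stat2 and the Isg15 protease Usp18 did not pass the rule. Their differences in wild type were -0.92 for Ifih1, -0.84 for Dhx58, -0.86 for Stat2 and -0.41 for Usp18, and all 4 were lowest in wild type with IL-4. Usp18 also dampens the response to further interferon, and its signals lay between 5.79 and 6.20 on the 4 arrays.

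The Parp genes encode ADP-ribosyltransferases, several of which restrict viral replication, and 3 of 4 fell in wild type, with a median of -1.22. Parp14 had signals of 7.39 with IL-4 and 7.61 in medium in Stat6-/- macrophages, against 6.40 with IL-4 and 8.01 in medium in wild type, 3.06-fold lower with IL-4. Parp14 is also known as a cofactor of Stat6. Parp9, which works in a complex with the ubiquitin ligase Dtx3l, had 6.02 with IL-4 and 6.04 in medium in Stat6-/- cells, against 4.82 with IL-4 and 6.16 in medium in wild type, 2.54-fold lower. Dtx3l lies between Parp14 and Parp9 in the genome and, though not on the list of 39, fell by 1.11 in wild type. Parp10 had 4.67 with IL-4 and 4.90 in medium in Stat6-/- cells, against 3.81 with IL-4 and 4.89 in medium in wild type, 2.12-fold lower, which was short of the rule (-0.90) after the arrays were quantile-normalized again. Parp12, at -0.81, did not pass.

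The GTPases of the guanylate-binding and immunity-related families attack vacuoles that hold intracellular pathogens, and are best known as targets of interferon gamma. Of the 3 measured, 2 fell in wild type. Iigp1 had signals of 5.01 with IL-4 and 5.10 in medium in Stat6-/- macrophages, against 2.63 with IL-4 and 4.85 in medium in wild type, 4.66-fold lower with IL-4 and close to the floor. Gbp3 had 5.96 with IL-4 and 6.02 in medium in Stat6-/- cells, against 4.29 with IL-4 and 5.55 in medium in wild type, 2.40-fold lower. Irgm1, a regulator of the other immunity-related GTPases, had 6.86 with IL-4 and 6.76 in medium in Stat6-/- cells, against 5.77 with IL-4 and 6.69 in medium in wild type, a difference of -0.92 that did not pass. Both families hold close paralogs, so their signals may be shared.

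Of the 2 measured Ifi genes 0 fell in wild type, with a median of 0.35. The name Ifi covers unrelated proteins. Among other interferon-stimulated genes Ifi203 (-2.16) and Ifi205 (at least 1.65-fold, to under the floor) fell in wild type, whereas Ifi30 (1.13) rose. These genes are named here after their values were seen. Ifi35, a protein that binds Nmi, had signals of 4.86 with IL-4 and 5.15 in medium in Stat6-/- macrophages, against 5.29 with IL-4 and 5.00 in medium in wild type. Ifi27l2a, a small membrane protein, had 8.87 with IL-4 and 7.94 in medium in Stat6-/- cells, against 8.42 with IL-4 and 8.01 in medium in wild type. Neither passed the rule in any comparison, although Ifi27l2a reached it with IL-4 in Stat6-/- cells after the intensity trend was removed (1.01). Ifi27l2a was higher with IL-4 in both genotypes, by 0.93 in Stat6-/- and 0.41 in wild type, and Ifi35 was the only member with its highest signal in wild type with IL-4.

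**Figure D2:**
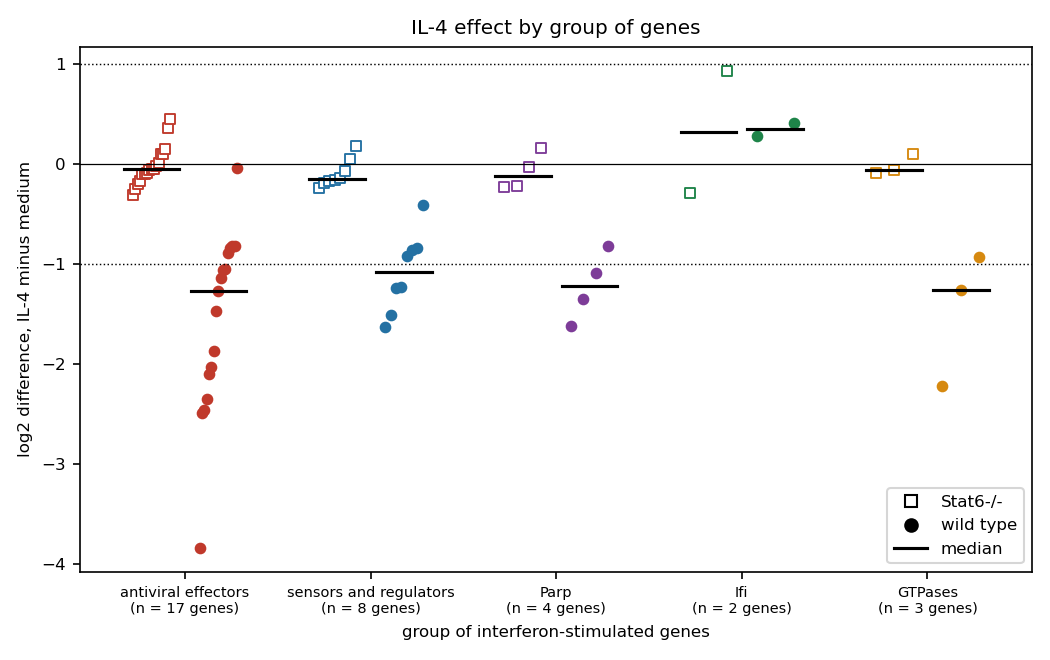
Log2 difference, IL-4 minus medium (vertical axis), of each measured gene by group, with open squares for Stat6-/-, filled circles for wild type, bars for the median and dotted lines at the 2-fold rule. In Stat6-/- the medians lie between -0.15 and 0.32, and in wild type they are -1.27 for effectors, -1.07 for sensors and regulators, -1.22 for Parp, 0.35 for Ifi and -1.26 for GTPases.

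The genotypes were then compared in the same culture. In medium, 0 of the 34 genes were higher and 0 were lower in Stat6-/- than in wild type, against backgrounds of 0.301% higher and 1.15% lower. The median difference, Stat6-/- minus wild type, was -0.12 over the 34 genes and -0.10 over all genes. The extremes were Mx2 at -0.59 and Isg20 at 0.57. By group the medians ran from -0.17 for the Parp genes to 0.25 for the GTPases.

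With IL-4, 18 of the 34 genes were higher and 0 lower in Stat6-/- than in wild type, against backgrounds of 4.01% higher and 4.83% lower, with a median of 1.03 over the 34 genes and 0.00 over all genes. This comparison, the IL-4 comparison in wild type and the difference of IL-4 effects share the array of wild type with IL-4, so they are not independent. The values of Stat6-/- minus wild type with IL-4 were 3.49 for Ifit3, 2.48 for Ifit2, 2.38 for Iigp1, 2.28 for Rsad2, 1.92 for Ifit1 and 1.86 for Mx2. By group, 11 of 17 effectors, 3 of 8 sensors and regulators, 1 of 4 Parp genes, 0 of 2 Ifi genes and 3 of 3 GTPases were higher. The smallest value past the rule was 1.02 for Rtp4, and Parp14 at 0.99 and Trim30a at 0.98 lay just short of it. Rtp4 and Oasl2 missed the rule after the arrays were shifted to one median. Ifi35, at -0.43, was the only member below zero.

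The difference of the IL-4 effects, Stat6-/- minus wild type, passed 1 in the positive direction for 21 of the 34 genes and in the negative direction for 0, against backgrounds of 5.77% and 3.2%. Its median was 1.12 over the 34 genes and 0.07 over all genes. It was 3.79 for Ifit3, 2.44 for Mx2, 2.40 for Ifit2, 2.21 for Rsad2 and 2.21 for Ifit1. It passed the rule for 12 of 17 effectors, 4 of 8 sensors and regulators, 2 of 4 Parp genes, 0 of 2 Ifi genes and 3 of 3 GTPases. Isg20 fell in wild type but had a difference of IL-4 effects of 0.94, as did Parp10 with 0.85, so neither passed here, whereas Zbp1 at 1.18 and Irgm1 at 1.03 did. Oasl2, Trim30a and Irgm1 missed the rule after the arrays were quantile-normalized again or the intensity trend was removed, and Oas1a under the second of these settings.

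**Figure D3:**
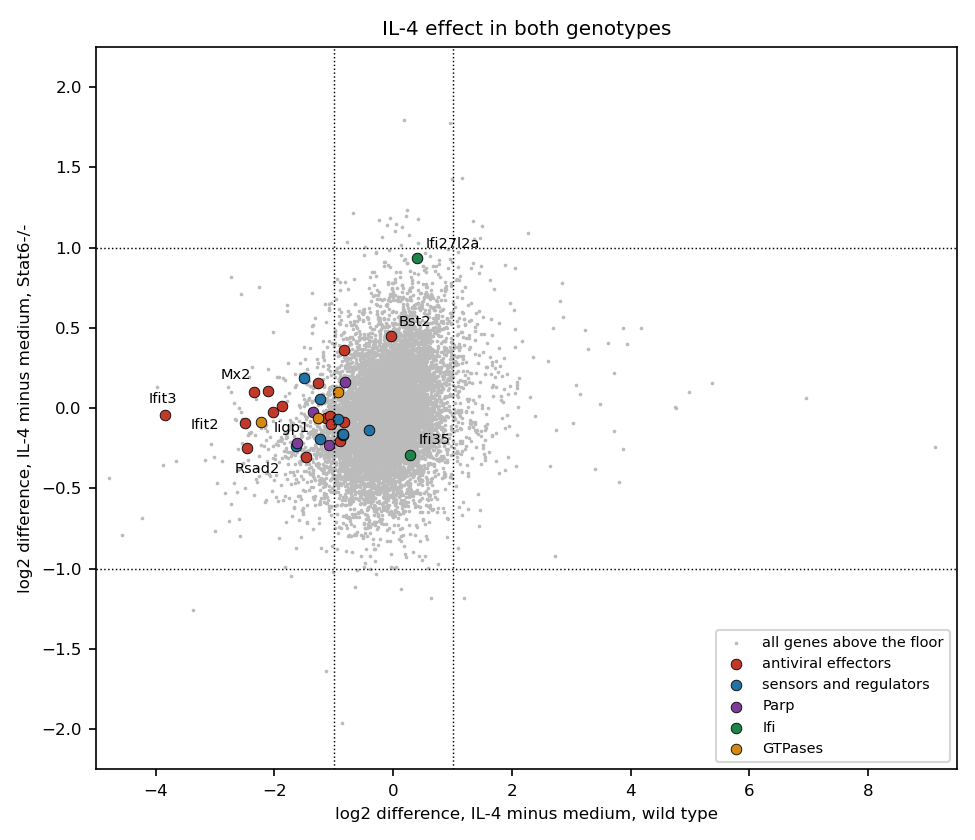
Log2 difference, IL-4 minus medium, in wild type (horizontal axis) and in Stat6-/- (vertical axis) for the 34 measured genes, coloured by group, over all genes above the floor in grey, with dotted lines at the 2-fold rule. The coloured points spread left along the horizontal axis to -3.84 for Ifit3 and stay near zero on the vertical axis, with Ifi27l2a at 0.93 the highest.

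The upstream parts of the pathway moved less uniformly. With IL-4 the backgrounds were 6.78% lower and 2.96% higher in wild type, and 0.115% lower and 0.24% higher in Stat6-/-. For Stat6-/- against wild type with IL-4, 4.83% of eligible genes were lower and 4.01% higher. For the difference of IL-4 effects, 3.2% were lower and 5.77% higher. The upstream lists are too short for their shares to be set against these. Of 12 interferon ligand genes on the array, 2 were above the floor (Ifna5 and Ifnl2) and 0 passed the rule in any comparison. Ifnb1, the interferon that macrophages release first, was under the floor on all 4 arrays. Of 5 receptor chains above the floor, Ifnar2 fell with IL-4 in wild type. It had signals of 8.30 with IL-4 and 8.47 in medium in Stat6-/- macrophages, against 7.18 with IL-4 and 8.52 in medium in wild type, a difference of -1.34. The other chain of the same receptor, Ifnar1, had 6.34 with IL-4 and 6.45 in medium in Stat6-/- cells, against 7.07 with IL-4 and 6.91 in medium in wild type, and did not pass. Ifngr1, a chain of the interferon gamma receptor, had a difference of -0.96 in wild type and did not pass.

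Of the 3 Janus kinases, 0 passed the rule for IL-4 in either genotype, and Jak2 was lower in Stat6-/- than in wild type with IL-4, by -1.34. Of 7 transcription factors above the floor, Irf8 fell with IL-4 in wild type. Irf8, a factor of the macrophage lineage, had signals of 7.20 with IL-4 and 7.66 in medium in Stat6-/- macrophages, against 6.004 with IL-4 and 7.17 in medium in wild type. The factors Irf7, Irf9 and Irf1 did not pass the rule, with wild-type differences of -0.71 for Irf7, -0.53 for Irf9 and -0.38 for Irf1. Among 6 brakes on the pathway, Socs1, an inhibitor of Janus kinases, rose in wild type. Socs1 had 2.97 with IL-4 and 3.22 in medium in Stat6-/- cells, against 4.27 with IL-4 and 2.76 in medium in wild type. The difference in wild type was 1.51, and the signal of 2.76 lay close to the floor of 2.52. Pias1, an inhibitor of STAT signalling, fell by 1.06 in wild type. Besides Jak2, Stat6-/- minus wild type with IL-4 passed the rule for Ifnar2 (1.12), Irf8 (1.20) and Socs1 (-1.30). The difference of IL-4 effects passed it for Ifnar2 (1.17) and Socs1 (-1.75).

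A wider list of 82 other interferon-stimulated genes, also chosen with earlier results of these data known, held 66 above the floor. In Stat6-/- cells 0 of them fell and 0 rose with IL-4, with a median of -0.01, and in wild type 25 fell and 2 rose, with a median of -0.75. The backgrounds in wild type were 6.78% lower and 2.96% higher, with a median of -0.10 over all genes. Those with the largest decreases in wild type were the chemokine Cxcl10 (-3.17), Ifit3b, the RNA sensor Tlr7 (-2.55) and the GTPase Gbp7 (-2.44). The 2 that rose were Psmb10 (1.17), a subunit of the immunoproteasome, and Ifi30 (1.13), a thiol reductase of antigen processing. In medium 0 were higher and 1 was lower in Stat6-/- than in wild type, the chemokine Ccl5 at -1.26. With IL-4, 21 were higher and 2 lower, with a median of 0.67, against backgrounds of 4.01% higher and 4.83% lower and a median of 0.00 over all genes. Those with the largest increases were Cxcl10 (2.85), Ifitm1 (2.79), Gbp7 (2.77) and Ms4a4c (2.69), and the 2 lower were Ccl5 (-1.54) and Ifi30 (-1.39). The difference of IL-4 effects passed the rule upward for 20 and downward for 1, against backgrounds of 5.77% and 3.2%.

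**Figure D4:**
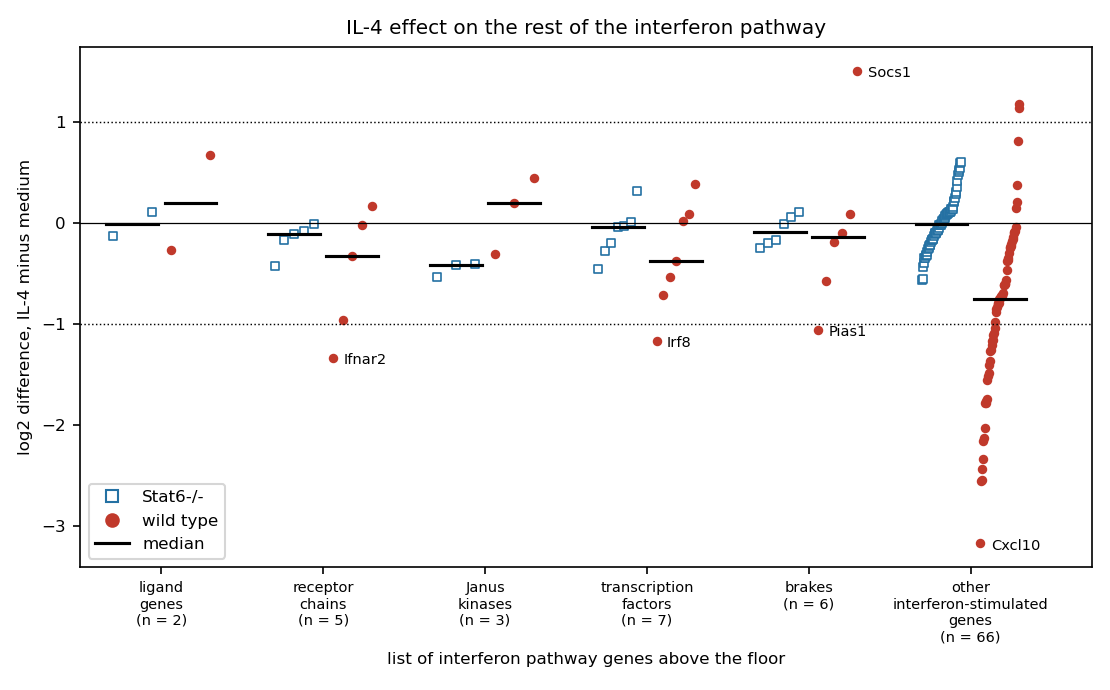
Log2 difference, IL-4 minus medium (vertical axis), of interferon pathway genes above the floor that are not among the 34, by list, with open squares for Stat6-/-, filled circles for wild type, bars for the median and dotted lines at the 2-fold rule. Cxcl10 at -3.17 and Socs1 at 1.51 mark the ends in wild type, and the median of other interferon-stimulated genes is -0.01 in Stat6-/- and -0.75 in wild type.

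RefSeq promoter windows, from 250 bases before to 50 bases after the annotated start, were given for 22 of the 34 measured genes. The ISRE core GAAANNGAAA occurred on either strand in at least 1 window of 12 of these 22 genes (54.5%). The share was 3.99% of 27025 genes with a window and 3.78% of those of them above the floor. Members that fell by the 2-fold rule with IL-4 in wild type and those that missed the rule held it in near-equal shares. These were 7 of 13 (53.8%) and 5 of 9 (55.6%). Missing the rule is not the absence of a decrease. The 5 were Ifih1 (-0.92), Irgm1 (-0.92), Stat2 (-0.86), Oas3 (-0.84) and Bst2 (-0.04). Among genes with a window, 563 above the floor fell with IL-4 in wild type, members included. Of these 563, 53 held the ISRE core (9.41%). The GAS motif TTCNNNGAA, the element of interferon gamma responses, occurred in 7 of the 22 (31.8%) and in 9.55% of all genes. The Stat6 type site TTCNNNNGAA, which differs from GAS by 1 more base in the spacer, occurred in 5 of the 22 (22.7%) and in 8.01% of all genes. It was found in 4 of the 13 members that fell and in 1 of the 9 that missed the rule. Among genes above the floor with a window, 39 of the 563 that fell held it (6.9%), against 6.4% of all such genes. The ISRE core, GAS and Stat6 type motifs can overlap one another and were counted separately, and a match is not evidence of binding.

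**Figure D5:**
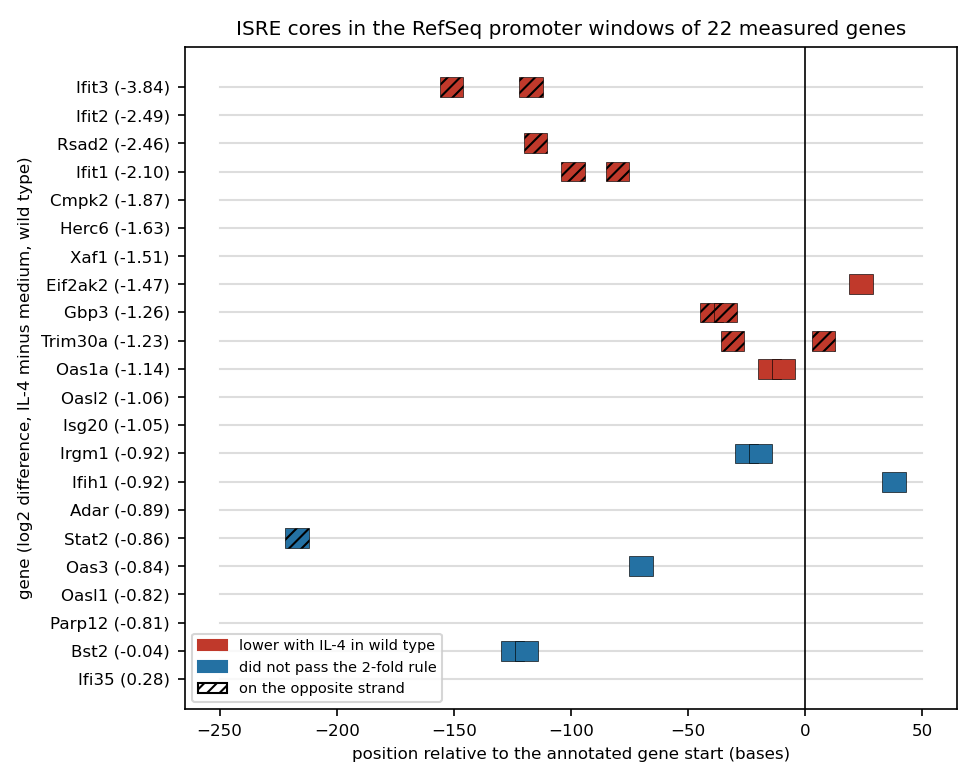
Positions of ISRE cores (blocks) relative to the annotated gene start (horizontal axis, in bases) for the 22 measured genes with a promoter window, ordered by the log2 difference, IL-4 minus medium, in wild type; cores of several windows of a gene are drawn on 1 line. Red genes passed the 2-fold rule and blue genes did not, hatching marks the strand opposite to the gene, and cores appear in both colours, 7 genes red and 5 blue.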

How the data were processed

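The deposited table held log2 signals of 35557 probesets on 4 arrays. The authors obtained them by RMA with the program Affymetrix Expression Console, per the submitters' processing notes. Its version and settings and the build are not given in the sources used, and the log base was read from the range of the values. RMA corrects background, normalizes by quantiles and compresses low signals, so that differences of dim genes are understated. The platform annotation gave 1 symbol to 21789 probesets, several to 1621 and none to 12147. Each of 19938 genes was represented by its single-symbol probeset with the highest mean, and 10798 genes reached the floor. Differences of log2 signals were taken in 5 comparisons and called at 2-fold. The members, their groups and the other gene lists were chosen with earlier results of these data known. All 39 members are named, those past the rule in at least 1 comparison with all 4 signals, and of the other lists up to 4 genes per comparison with the largest differences; any further gene was chosen after its values were seen. The alternatives repeated the quantile normalization, shifted the arrays to one median, removed the intensity trend (lowess, fraction 0.3), dropped the floor, raised dim signals to the floor, averaged all probesets of a gene, or used a 1.5-fold rule. Scripts (Python 3.11.15, pandas 2.3.3, statsmodels 0.14.6) were tested on simulated data. The number of arrays limits the precision.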

Additional observations from a re-analysis of the deposited data

Results flagged for a closer look

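For 8 genes the IL-4 difference was above zero in Stat6-/- macrophages and below zero in wild type, with at least 1 log2 unit between them. The values, IL-4 effect in Stat6-/- minus that in wild type, were 2.44 for Mx2, 2.21 for Ifit1, 1.88 for Cmpk2, 1.69 for Xaf1, 1.43 for Oas2, 1.29 for Rtp4, 1.18 for Zbp1 and 1.03 for Irgm1. With 1 array per group the difference between the genotypes was not tested. On the Stat6-/- side the IL-4 difference of these genes was at most 0.36 (Zbp1), so the opposite sign rests on small values there.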

How the results depend on the processing

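Of the 21 decreases with IL-4 in wild type, 17 held in all 7 settings that kept the 2-fold rule, as did 16 of the 18 genes higher in Stat6-/- than in wild type with IL-4 and 17 of the 21 differences of IL-4 effects. Isg20, Oasl2 and Parp10 missed the rule in wild type when quantile normalization was applied again, and Oas1a also when the intensity trend was removed. No member changed direction past the rule. With quantile normalization again, the members' median for Stat6-/- minus wild type in medium was 0.0207. With arrays shifted to one median, the members' median for Stat6-/- minus wild type with IL-4 was 0.98. With the intensity trend removed, the members' medians were 0.0214 for IL-4 in Stat6-/-, -0.98 for IL-4 in wild type, 0.0463 for Stat6-/- minus wild type in medium and 0.99 for the genotype difference in the IL-4 effect, while 1 member (Ifi27l2a) rose with IL-4 in Stat6-/-. At 1.5-fold, 1 member was higher with IL-4 in Stat6-/- (2.94% of all genes) and 1 was lower in Stat6-/- than in wild type in medium (7.89% of all genes). The cause of these shifts was not tested. Scaling moved the balance of all genes: of those past the rule with IL-4 in wild type, 30.4% were higher, against 45.2% after quantile normalization and 46.9% with the trend removed. For the difference of IL-4 effects the same share was 64.3%, against 52.3% and 53.6%, and for Stat6-/- against wild type in medium 20.8%, against 37.2% and 31.4%. The median of all genes with IL-4 in wild type was -0.10, and 0.02 after quantile normalization. With Oas1a left out, chosen after seeing the data, 20 members fell in wild type. An ISRE core with its last base free, chosen after seeing the data, occurred in 13 of 22 members (59.1%) and 9.76% of all genes. No replicate could be left out and no paired analysis was possible because each group had 1 array.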
